A study of Mus musculus with 28 samples.

Results

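The genes followed here are 10 transcription regulators of blood and endothelium: Tal1, Lmo2, Gfi1b, Runx1, Fli1, Erg, Sox7, Sox17, Sox18 and Hhex. These 10 genes were chosen by name from the 22238 protein-coding genes of the annotation. No measured value was used to choose them, but earlier results of these data were known. For each gene the lists of enriched regions were read in 3 windows, namely 5 kb on either side of the 5′ transcription start site (TSS), the gene body, and 50 kb on either side of the TSS. Single regions were described across the whole locus, meaning the gene body with 50 kb on each side.

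Blood and endothelium arise from mesoderm through a shared precursor. Tal1, a basic helix-loop-helix factor that binds E-boxes, acts in a complex that the LIM-only adaptor Lmo2 bridges to GATA factors. The Ets factors Fli1 and Erg and the SoxF factors Sox7, Sox17 and Sox18 act at steps from hemangioblast to blood or endothelium. So do the homeodomain factor Hhex, Runx1 and the zinc finger repressor Gfi1b. H3K27ac, acetylation of lysine 27 of histone H3, marks active promoters and enhancers. H3K27me3, trimethylation of the same residue by Polycomb repressive complex 2, of which Suz12 is a subunit, marks silenced developmental genes.

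The cells were mouse embryonic stem cells (ESCs) of the Brg1f/f; Actin-CreER line, a single line in which both alleles of the chromatin remodeler ATPase Brg1 are floxed and an Actin promoter drives a tamoxifen-inducible Cre. They were differentiated as embryoid bodies and, from day 2, reaggregated for 40 h with VEGF, Activin A and BMP4, which favors mesoderm, and all samples were taken at day 4. From day 2, control cultures received the vehicle tetrahydrofuran and 4-OHT cultures received 200 nM 4-hydroxytamoxifen, so that both groups carried the floxed alleles and CreER and only the 4-OHT group was induced to delete Brg1. ChIP-seq, which sequences the DNA pulled down with an antibody, covered H3K27ac (2 replicates per condition), H3K27me3 (3 per condition), Suz12 (2 per condition) and FLAG, a tag on Brg1 (3 replicates, Brg1 levels normal). The sample labels give the Brg1f/f; Actin-CreER line also for FLAG, whereas the methods of the study name a Brg1-FLAG ESC line. They also describe duplicate FLAG samples, while 3 replicates are labelled and all were used here.

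Each replicate was deposited as a list of enriched regions without a score or a read count, so read depth is unknown and the value of a gene in a replicate is the number of base pairs covered by regions (covered length). The lists differed in extent. H3K27ac lists held 32161 to 41062 regions, H3K27me3 lists 6787 to 16959, Suz12 lists 2913 to 4016, and the FLAG lists 8021, 8257 and 192. Replicate 1 of H3K27me3 stood apart in both conditions, with a median region width of 250 bp against 350 to 425 bp in replicates 2 and 3. Over the whole list, 4-OHT covered 0.565, 0.817 and 0.76 times the length of control H3K27me3 in pairs 1, 2 and 3. As a check of the cells, 7 of 8 mesoderm markers carried H3K27ac within 5 kb of the TSS in every H3K27ac list and Kdr carried it in none. None of 5 neural markers carried H3K27ac in any list. Pluripotent markers kept it at 4 of 6 genes in both control lists and at 5 of 6 in both 4-OHT lists. Of 6 endoderm markers, Foxa2, Foxa1, Afp and Ttr had none, whereas Cer1 and Gata6 carried it in both control lists. In both 4-OHT lists 1 endoderm marker carried it.

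Runx1, Fli1, Erg and Hhex held the regions on which the H3K27ac results turn, and the middle 200 bp of 6 of these is shown on the plus strand of mm9. They are the Brg1-bound and H3K27ac-marked regions of Runx1, the widest distal H3K27ac region per locus that neither 4-OHT list held, and the H3K27ac region of Hhex that was longer after 4-OHT. The second Brg1-bound stretch of Runx1 and the Hhex stretch were chosen after their values were seen. Capitals mark matches, on either strand, to a GATA motif (AGATAA), an Ets motif (AGGAAG), an E-box (CAGCTG or CATCTG), a Runx motif (TGTGGT) or a Sox motif (ACAATG).
Runx1 downstream promoter, Brg1-bound, chr16:92697801-92698000, in an intron of the long transcripts: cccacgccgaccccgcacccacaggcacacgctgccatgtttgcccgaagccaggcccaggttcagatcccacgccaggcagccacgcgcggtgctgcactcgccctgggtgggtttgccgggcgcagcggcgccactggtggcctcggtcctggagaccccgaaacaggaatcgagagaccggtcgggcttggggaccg
Runx1 intron, Brg1-bound, chr16:92715538-92715737: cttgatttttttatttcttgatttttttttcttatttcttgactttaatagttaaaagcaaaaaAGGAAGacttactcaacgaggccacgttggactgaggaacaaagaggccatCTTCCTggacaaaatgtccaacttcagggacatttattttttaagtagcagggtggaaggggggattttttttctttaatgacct
Runx1 intron, widest missing after 4-OHT, chr16:92708713-92708912: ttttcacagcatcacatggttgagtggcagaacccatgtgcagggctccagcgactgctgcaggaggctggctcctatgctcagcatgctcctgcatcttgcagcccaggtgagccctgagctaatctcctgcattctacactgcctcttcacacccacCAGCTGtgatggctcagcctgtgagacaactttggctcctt
Fli1 downstream, intergenic, missing after 4-OHT, chr9:32217188-32217387: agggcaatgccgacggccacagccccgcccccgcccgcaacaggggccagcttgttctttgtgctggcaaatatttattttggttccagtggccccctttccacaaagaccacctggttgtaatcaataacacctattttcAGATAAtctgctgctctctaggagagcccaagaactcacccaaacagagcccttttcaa
Erg downstream, intergenic, missing after 4-OHT, chr16:95543801-95544000: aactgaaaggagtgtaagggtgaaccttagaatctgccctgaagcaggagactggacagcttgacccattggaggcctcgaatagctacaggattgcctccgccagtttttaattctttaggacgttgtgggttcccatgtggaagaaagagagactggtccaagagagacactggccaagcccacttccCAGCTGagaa
Hhex coding exon, longer after 4-OHT, chr19:37509388-37509587: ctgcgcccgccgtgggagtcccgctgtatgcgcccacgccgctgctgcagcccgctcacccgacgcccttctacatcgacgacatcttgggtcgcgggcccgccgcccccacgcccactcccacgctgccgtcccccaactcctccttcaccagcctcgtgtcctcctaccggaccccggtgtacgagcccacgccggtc

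The Runx1 intron stretch that was Brg1-bound held 2 Ets matches, a motif found in the middle 200 bp of 28.5% of the 13914 distal H3K27ac control regions. An E-box stood in the other Runx1 intron stretch and in the Erg stretch, against 24.6% of distal regions. The Fli1 stretch held 1 GATA match, against 11.7%. Both GC-rich stretches, at the downstream promoter of Runx1 (71% G and C) and in the Hhex exon (72.5%), held no match to any of these letters. These 2 lie in promoter regions, of which 5.23% held a GATA, 23.1% an Ets and 18.7% an E-box match. Runx and Sox motifs were found in 13.4% and 9.97% of distal regions and in 8.78% and 5.45% of promoter regions. For these motifs none of the 6 stretches had a match. No matches overlapped, and each is a description of the sequence alone.

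Runx1, the factor required for blood cells to emerge from hemogenic endothelium, had the most H3K27ac of the 10 genes in control within 5 kb of the TSS and in the gene body, whereas within 50 kb Gfi1b, with the promoters of Gtf3c5 and Tsc1 nearby, had a mean of 4450 ± 70.7 bp against 3687.5 ± 2139.0 bp for Runx1 (SD, n = 2). It has a 5′ promoter and a downstream promoter 129 kb away, and the marks differed between them. Within 5 kb of the 5′ TSS, H3K27ac spanned 2075 and 2375 bp in controls but only 100 and 850 bp after 4-OHT. The groups did not overlap, and the difference was -1.99 on the log2(bp + 250) scale (standard error 0.64). The difference did not pass limma across all genes (adjusted p = 0.273, and 0.157 to 0.7 over the alternatives), and an exact permutation test of 2 against 2 replicates cannot give a p below 0.333. Of the genes tested, 0.718% had a lower difference. A mark in fewer cells and a weaker mark in every cell cannot be told apart in these cultures.

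Within 5 kb of the downstream promoter, H3K27ac covered 1150 and 1150 bp in control against 1100 and 1075 bp after 4-OHT, in a single region at chr16:92697751-92698900. This promoter also carried Polycomb marks, which were absent within 50 kb of the 5′ TSS in every list. Its H3K27me3 covered 1725, 4375 and 3525 bp in control against 773, 2825 and 3175 bp after 4-OHT, lower in all 3 pairs with overlapping groups. By comparison, 43.9% of all genes tested were lower in all 3 pairs within 5 kb of their 5′ TSS. Suz12 at the downstream promoter covered 575 and 900 bp in control against 1300 and 2825 bp after 4-OHT, so that both 4-OHT values were the higher ones. The H3K27ac region lay between the H3K27me3 regions at chr16:92695326-92697325 and chr16:92699301-92700775.

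Across the whole Runx1 gene body H3K27ac was split into 17 and 19 regions in control, covering 6350 and 11550 bp, and into 6 and 4 regions after 4-OHT, covering 3325 and 2775 bp. Of the distal regions, defined as regions in both control lists more than 2.5 kb from any annotated TSS, 9 lay in the Runx1 locus, and 7 of them were in neither 4-OHT list. The widest missing region, 117.5 kb downstream of the 5′ TSS, covered 500 and 1225 bp in control. Those at 109.9 and 110.7 kb covered 325 and 800 bp and 350 and 400 bp in control. The 2 regions that remained lay in introns 141.8 and 204.7 kb downstream, with 750 and 575 bp in control against 750 and 725 bp after 4-OHT for the first, and 1375 and 1250 bp against 1300 and 975 bp for the second. The region 140.1 kb downstream, close to one that remained, covered 275 and 925 bp in control against 0 bp after 4-OHT. A further region inside Runx1, near the start of the noncoding gene Gm16801 and so not counted as distal, covered 975 and 1250 bp in control against 75 and 0 bp after 4-OHT.

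**Figure D1:**
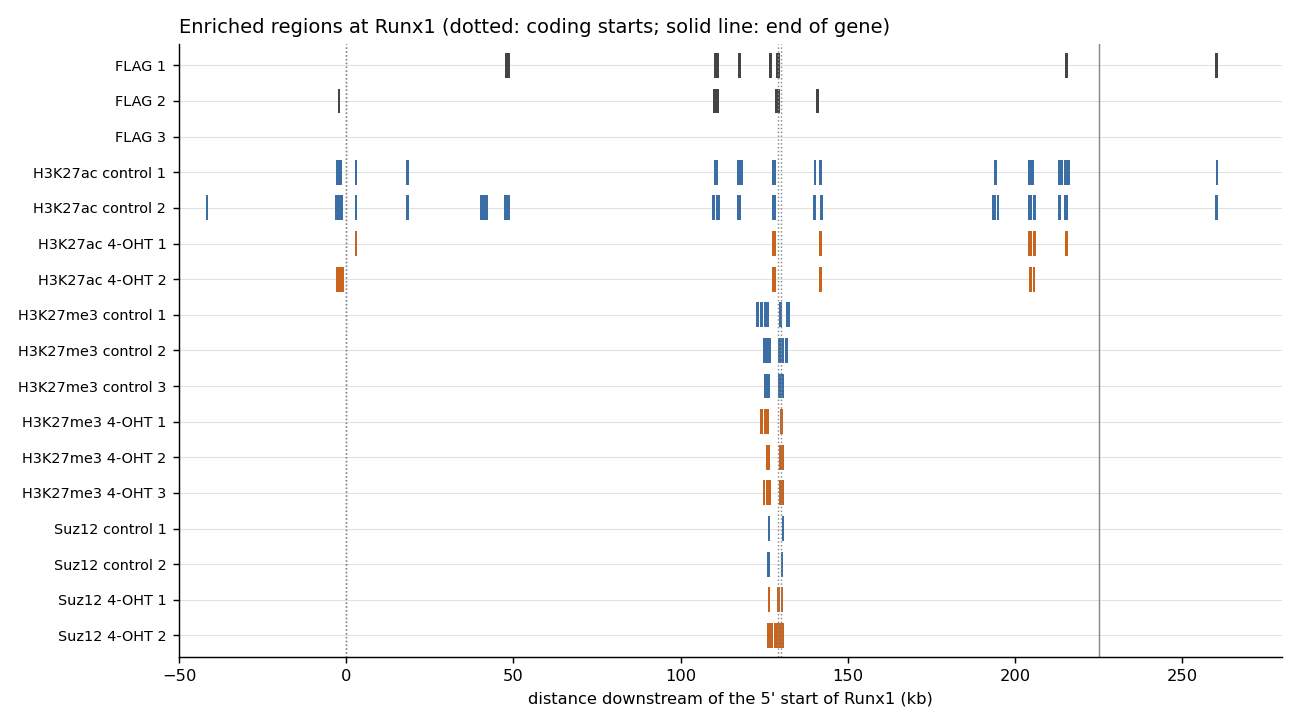
Enriched regions in each list along Runx1, plotted as distance in kb downstream of the 5′ TSS (negative values are upstream), in gray for FLAG, blue for control and orange for 4-OHT; regions narrower than 0.8 kb are drawn at that width. H3K27ac regions are fewer in both 4-OHT lists than in both control lists, while the region at the downstream promoter, flanked by H3K27me3 and Suz12, appears in all 4 H3K27ac lists.

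All Brg1-bound regions of the 10 loci lay in Runx1. Brg1-bound meant enriched in at least 2 of the 3 FLAG lists, which left 3 regions. Thus 1 of the 10 genes had any, and 12.5% of all protein-coding genes had at least 1 in the same window. At the downstream promoter, chr16:92697201-92697525 covered 325 and 225 bp and chr16:92697776-92698025 covered 100 and 250 bp in FLAG replicates 1 and 2. In the intron, chr16:92715526-92715750 covered 150 and 175 bp and lay inside the H3K27ac region 110.7 kb downstream that neither 4-OHT list held. Replicate 3, with 192 regions in all, had none at any of the 10 loci, and without replicate 1 or without replicate 2 no Brg1-bound region was left. Runx1 is a long gene of 225 kb, and of 469 protein-coding genes within 20% of its length 26.2% had a Brg1-bound region and 20 had 3 or more. FLAG regions of 1 list only numbered 10 at Runx1, 3 at Fli1, 2 at Erg and 1 each at Tal1, Sox7, Sox17 and Hhex. The one at Sox17 was 1400 bp wide, over an exon in replicate 1.

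Fli1, an Ets factor of hemangioblast and endothelium, had 2 H3K27ac regions in both control lists and none of them in either 4-OHT list. The region 1.9 kb upstream of its TSS covered 175 and 400 bp in control and 0 bp in both 4-OHT replicates, a difference of -1.07 (standard error 0.25, limma adjusted p = 0.217) on the log2(bp + 250) scale. The intergenic region 131.7 kb downstream of the TSS covered 800 and 1225 bp in control against 0 bp after 4-OHT. FLAG replicates 1 and 2 each had a region inside it, of 450 and 25 bp, but these did not overlap. Suz12 in 4-OHT replicate 2 covered 425 bp of the same position and was absent from it in the other 3 Suz12 lists. Erg, the related Ets factor, had a single distal region in both control lists, 264.3 kb from its TSS, which covered 150 and 250 bp and was in neither 4-OHT list.

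Hhex, the homeodomain factor of early endothelium and endoderm, was the one of the 10 genes whose H3K27ac within 5 kb of the TSS was longer in both 4-OHT replicates than in both control replicates. Within 5 kb of its TSS, H3K27ac covered 25 and 25 bp in control, the narrowest width the lists hold, against 675 and 625 bp after 4-OHT. The groups did not overlap, and the log2(bp + 250) difference was 1.71 (standard error 0.08). It lay above 99.8% of all genes tested but did not pass limma (adjusted p = 0.0672, unadjusted p = 9.01e-05). It passed with a smaller added constant of 25 bp (adjusted p = 0.0135) and with all protein-coding genes kept (0.0471), and ranged up to 0.402 over the other alternatives. Both of these settings also called many genes outside the list, whereas limma called no gene of the annotation as reported. This H3K27ac lay within the span of the Suz12 region at chr19:37508801-37510400. H3K27me3 around it covered 1975, 3275 and 2650 bp in control against 850, 2225 and 2202 bp after 4-OHT. It was lower in all 3 pairs, as at 43.9% of all genes tested. Its log2 difference was -0.59, and 30.8% of the genes tested had a lower one.

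Lmo2, Gfi1b and Sox18 carried little H3K27ac of their own. Lmo2 had 325 bp within 5 kb of its 5′ TSS in control replicate 2 and 0 bp in the other 3 lists. A region 35 kb downstream, in an exon of 4931422A03Rik, covered 575 and 325 bp in control against 425 and 550 bp after 4-OHT. Gfi1b held 1 H3K27ac region, in an intron 9.9 kb from its TSS, with 675 and 500 bp in control against 550 and 450 bp after 4-OHT. Within 50 kb of Sox18, a SoxF factor of vessel and lymphatic development, H3K27ac covered 100 and 300 bp in control against 600 and 1075 bp after 4-OHT, all of it at the promoters of the neighboring genes Tcea2 and Rgs19 and in an intron of Prpf6. Tal1, Sox7 and Sox17 had no H3K27ac within 50 kb of their TSSs in any list.

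Counted over the 10 genes, H3K27ac was present within 5 kb of the TSS in any list at 4 genes, and no gene passed limma, for which 0% of 11973 genes tested passed in either direction. At an unadjusted p under 0.05 the counts were 2 lower and 1 higher of these 4 genes, and 632 lower and 1479 higher of all genes. Both 4-OHT values were below both control values at Runx1 and Fli1, against 12.5% of all genes, and above them at Hhex, against 39.7%. Within 50 kb, 6 genes had H3K27ac and none passed limma, with 0% of 17138 genes passing. There the groups were apart with lower 4-OHT values at Lmo2, Gfi1b, Runx1 and Fli1, against 20.0% of all genes, and with higher ones at Sox18 and Hhex, against 39.7%. The median difference of all genes on the log2(bp + 250) scale was 0.12 at 5 kb and 0.11 at 50 kb, and that of the measured genes of the list was -0.84 and -0.23.

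Of the 13 distal H3K27ac control regions in the 10 loci, 9 were missing from both 4-OHT lists (69.2%), compared with 33.1% of all 13914 distal control regions. Of these 9, 7 lay in Runx1 and the others were those of Fli1 and Erg, whereas the single regions of Lmo2 and Gfi1b remained. Regions of one locus are not replicates of each other, and no test was made. The count depended on the control lists. With control replicate 2 alone it was 24 of 29, against 54.4% of all regions, and with control replicate 1 alone 14 of 19, against 36.3%, while leaving out either 4-OHT list kept 9 of 13. Of 5 distal regions in both 4-OHT lists, none was missing from both control lists, compared with 12.6% overall.

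**Figure D2:**
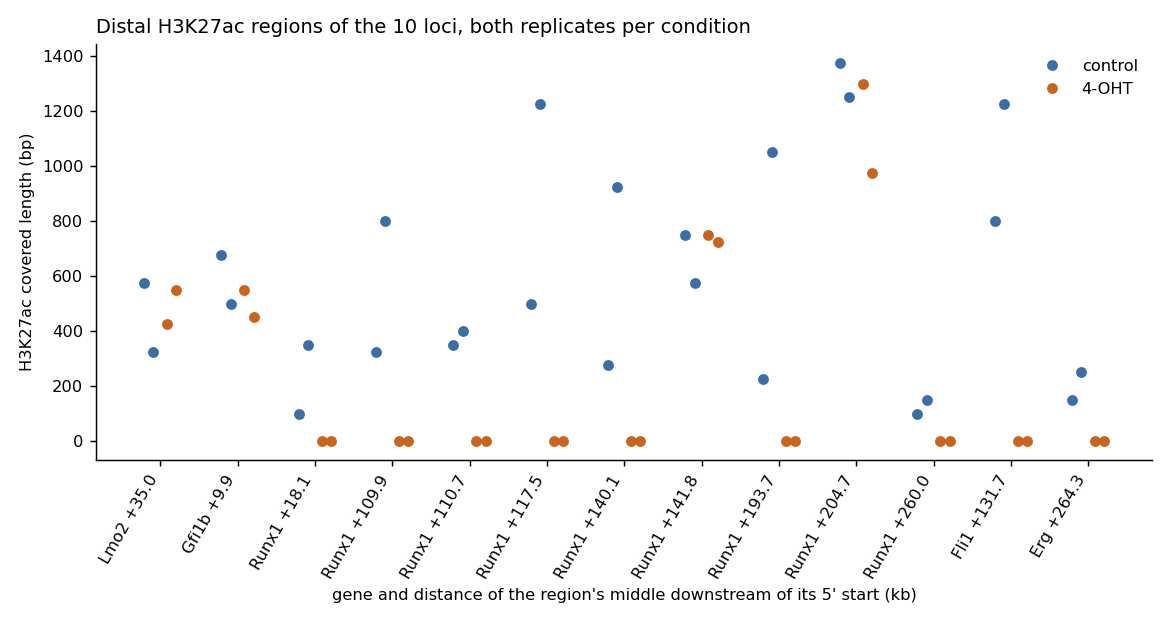
H3K27ac covered length in bp of each distal control region of the 10 loci in the 2 control (blue) and 2 4-OHT (orange) replicates, with the gene and the distance of the region from its 5′ TSS in kb below. In all, 9 of the 13 regions are at 0 bp in both 4-OHT replicates, and the remaining 4 have 4-OHT values of 425 to 1300 bp.

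Polycomb marks covered the promoters of 6 of the 10 genes. Tal1, Fli1, Sox7, Sox17, Sox18 and Hhex had H3K27me3 within 5 kb of the TSS in all 6 lists and Suz12 in all 4 lists. Tal1 and Sox17 were covered most widely, with H3K27me3 over 6626, 9526 and 9051 bp at Tal1 and over 5282, 10001 and 10001 bp at Sox17 in control, where the last 2 values fill the window. Both genes ranked above at least 98.3% of the genes tested in control covered length. Erg had 750, 475 and 150 bp in control without Suz12, Gfi1b had at most 150 bp, and Lmo2 and Runx1 had neither mark within 5 kb of the 5′ TSS.

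**Figure D3:**
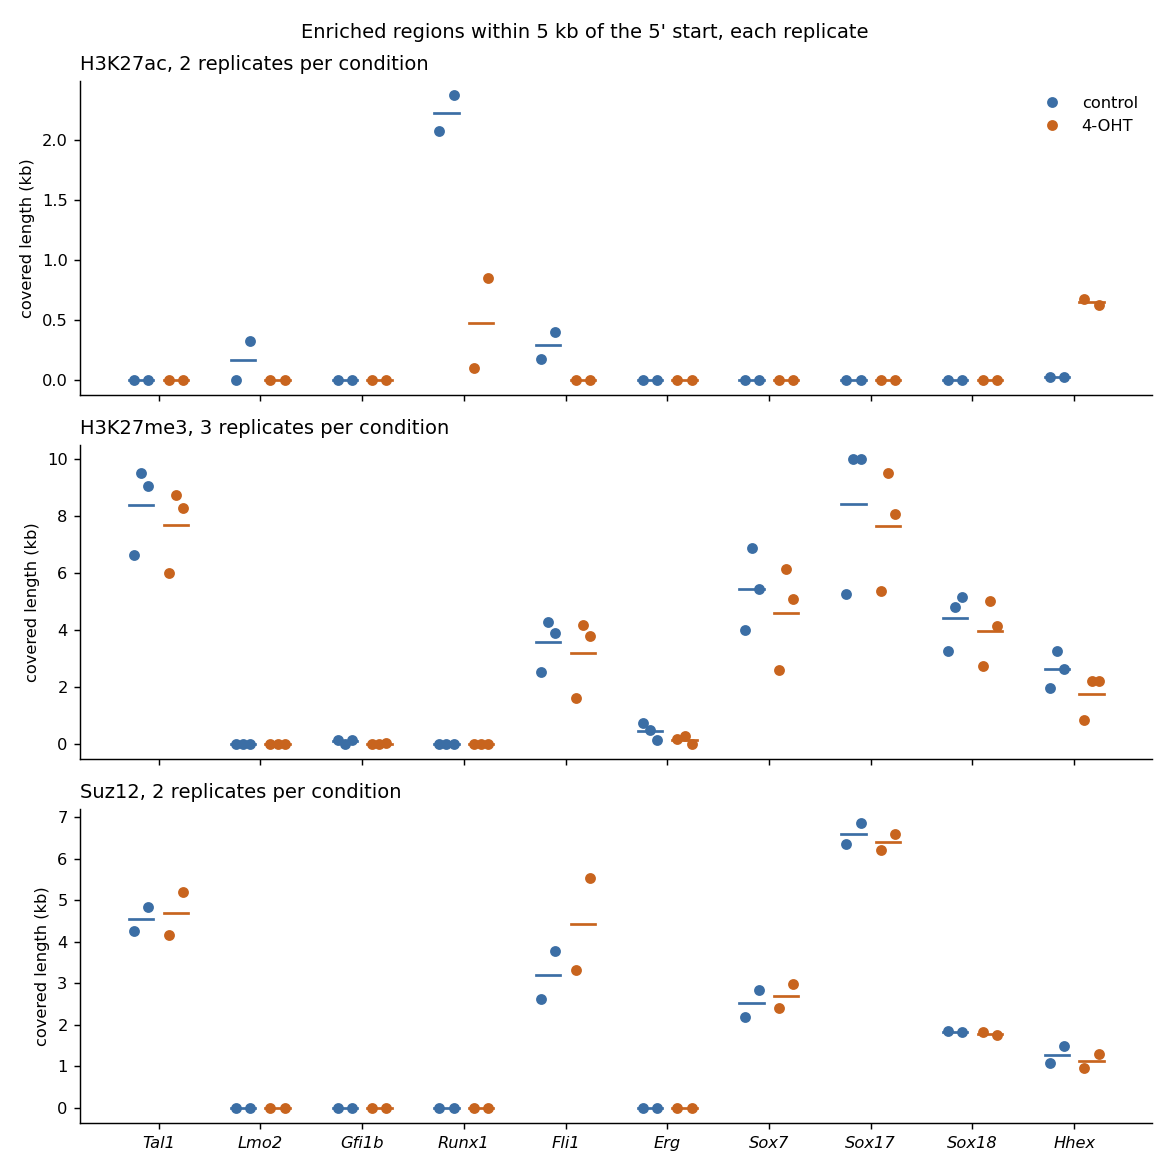
Covered length in kb within 5 kb of the 5′ TSS for each gene and replicate, in panels for H3K27ac, H3K27me3 and Suz12, with control in blue, 4-OHT in orange and a bar at each mean. H3K27ac points above 0 are found at Lmo2, Runx1, Fli1 and Hhex, whereas H3K27me3 and Suz12 are both present at Tal1, Fli1, Sox7, Sox17, Sox18 and Hhex in every replicate.

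H3K27me3 at these genes was slightly shorter after 4-OHT, within the spread of replicates. At Tal1 the 4-OHT replicates covered 6006, 8756 and 8306 bp, or 0.906, 0.919 and 0.918 times control in the 3 numbered pairs. In this window the 3 pairs of Tal1 therefore differed by nearly the same share, although the groups overlapped. Tal1 H3K27me3 already filled 95.3% and 90.5% of the window in control replicates 2 and 3. In the gene body of Tal1 it covered 6750, 9495 and 8770 bp in control against 5525, 8570 and 8470 bp after 4-OHT. There the shares were less alike. At Sox7 the values were 4015, 6875 and 5450 bp in control against 2600, 6150 and 5075 bp after 4-OHT, and at Fli1 2524, 4299 and 3899 bp and 1624, 4174 and 3799 bp. Both had their largest difference in pair 1, whose lists held narrower regions. Sox17 covered 5357, 9526 and 8082 bp after 4-OHT, and Sox18 3275, 4800 and 5175 bp in control against 2725, 5025 and 4150 bp after 4-OHT, each with 1 pair in the opposite direction. Erg covered 175, 275 and 0 bp after 4-OHT, and its difference of -0.79 was the largest of the list in size (standard error 0.45).

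Of 8 genes tested for H3K27me3, none passed limma, compared with 0.143% of 4182 genes, all lower, and no gene of the annotation passed with the replicate block or without any 1 of the 6 libraries. In the blocked fit Erg had an adjusted p of 0.208 and Hhex of 0.262. In no gene of the list were all 4-OHT values below all control values, against 12.0% of all genes. The 4-OHT value was the lower one in all 3 pairs at Tal1, Fli1, Erg, Sox7 and Hhex, 5 of 8, compared with 43.9% of all genes. This count was 6, 7 and 5 without pair 1, 2 and 3. The median log2 difference of the 8 genes was -0.25 and that of all genes -0.36, so that the median of the list was not the lower one.

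**Figure D4:**
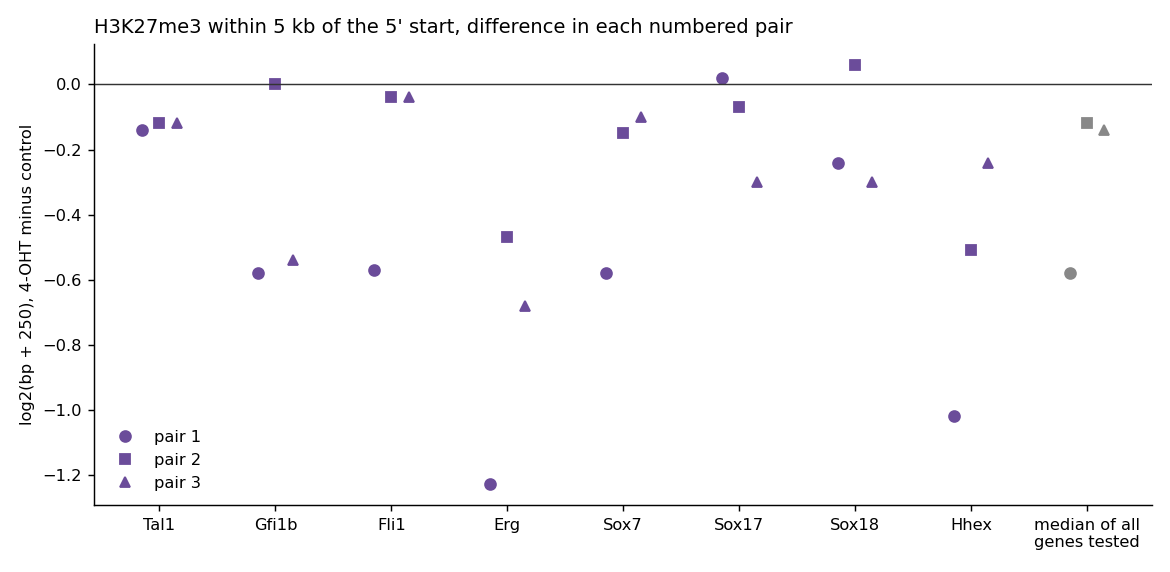
Difference in H3K27me3 covered length within 5 kb of the 5′ TSS, as log2(bp + 250) of 4-OHT minus control, in each of the 3 numbered pairs for the 8 genes tested, with the median of all 4182 genes in gray. Tal1 lies between -0.14 and -0.12 in all pairs, and Erg and Hhex reach -1.23 and -1.02 in pair 1, where the median of all genes is -0.58.

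Suz12 at 5 of the 6 promoters had 4-OHT means close to control, and at Fli1 it was 1.39 times control. It covered 4275 and 4850 bp in control against 4175 and 5200 bp after 4-OHT at Tal1, and 6357 and 6857 bp and 6207 and 6607 bp at Sox17. At Sox18 the values were 1850 and 1825 bp against 1825 and 1750 bp, and at Sox7 2200 and 2850 bp against 2400 and 2975 bp. Hhex likewise differed little, with 1075 and 1500 bp against 975 and 1300 bp. Fli1 had 2625 and 3775 bp against 3325 and 5550 bp, longer after 4-OHT in both same-numbered replicates, with overlapping groups. None of these 6 genes passed limma, for which 0% of 2273 genes passed, with 10 lower and 338 higher at an unadjusted p under 0.05 and none of the 6 among them. No gene of the list had both 4-OHT values below both control values, against 5.76% of all genes, or above them, against 32.0%. Without 4-OHT replicate 1 or 2, limma called 673 and 253 genes, none of them in the list.

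Lmo2 differed from this pattern. Its cluster of downstream coding starts, 11.5 to 12.3 kb into the gene, carried H3K27me3 of 1700, 2300 and 2100 bp in control against 1475, 2800 and 1750 bp after 4-OHT across the gene body. Suz12 covered 0 and 150 bp in control against 925 and 1150 bp after 4-OHT in the gene body. A Suz12 region at chr2:103810301-103811400 accounted for 925 and 1100 bp of this. Lmo2, Runx1, Fli1 and Sox18 were the genes whose Suz12 in the gene body was longer in both 4-OHT replicates than in both control replicates, 4 of 8 against 30.7% of all genes. At Fli1 the values were 875 and 974 bp in control against 999 and 1149 bp after 4-OHT, and at Sox18 1295 and 1345 bp and 1470 and 1370 bp, a smaller difference in bp than at Lmo2 or Runx1. None of the 4 passed limma in the gene body, where 1.34% of 2322 genes passed, all with higher values after 4-OHT. The median log2(bp + 250) difference there was 0.19 for all genes and 0.05 for the 8 genes. Both 4-OHT Suz12 lists held more regions (3654 and 4016) than both control lists (2951 and 2913).

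**Figure D5:**
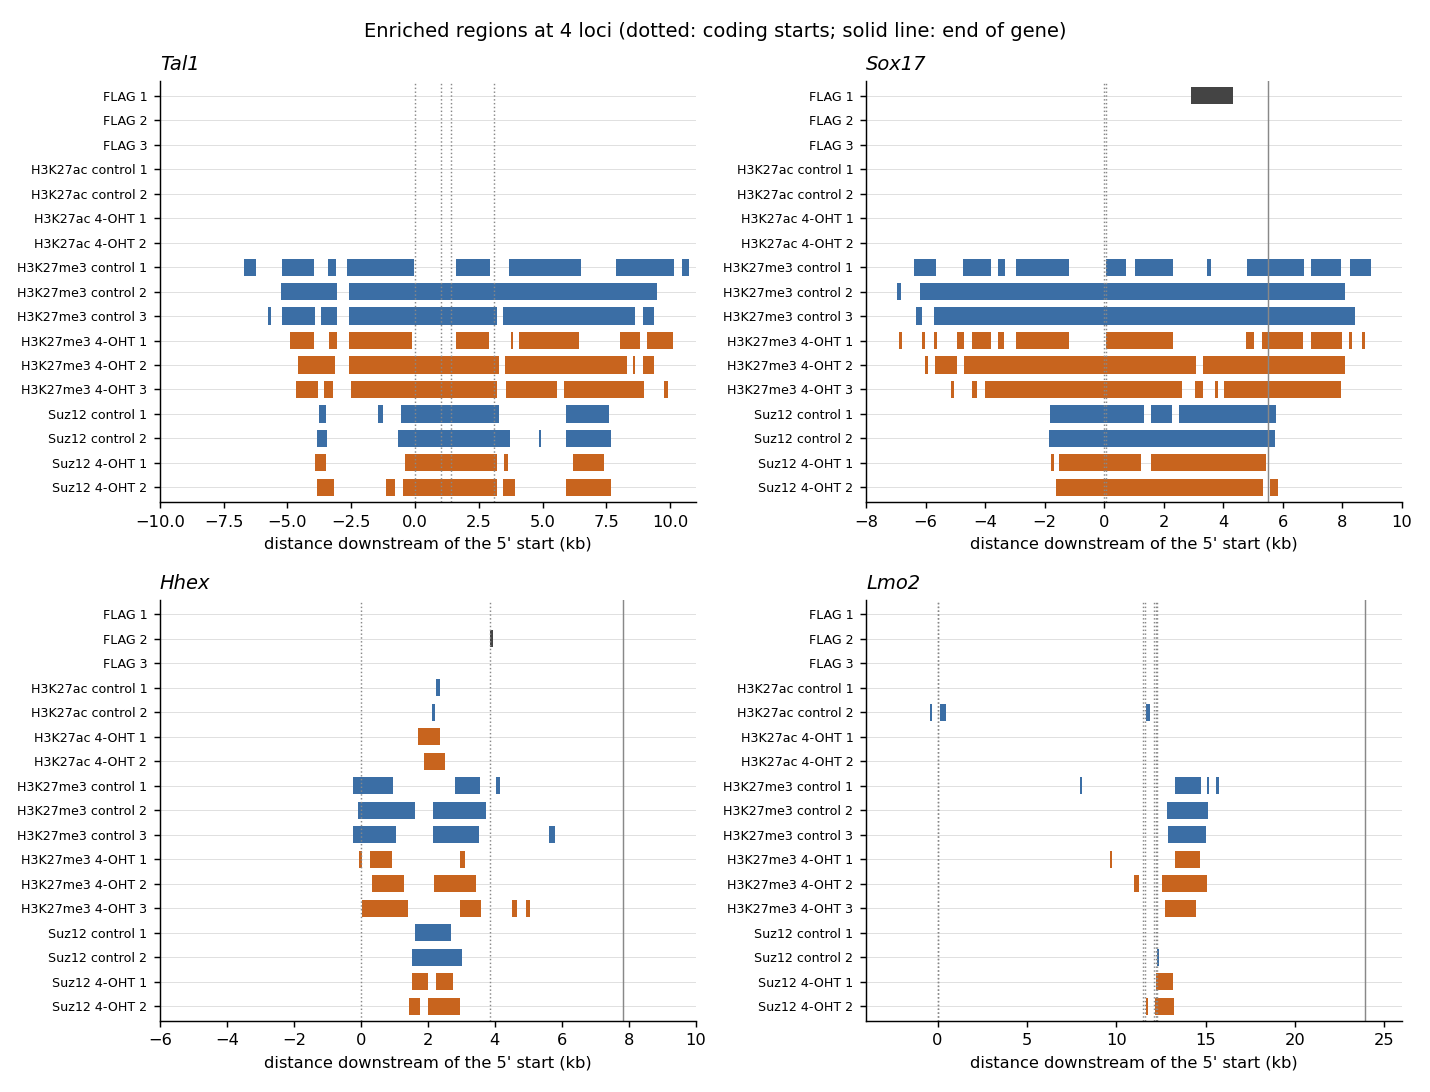
Enriched regions in each list at Tal1, Sox17, Hhex and Lmo2 by distance in kb downstream of the 5′ TSS, in gray for FLAG, blue for control and orange for 4-OHT; regions narrower than 0.1 kb are drawn at that width. Tal1 and Sox17 lie under H3K27me3 and Suz12 in every list without H3K27ac, Hhex has wider H3K27ac after 4-OHT within its Suz12 span, and Lmo2 has Suz12 at its downstream starts in both 4-OHT lists.

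Other regulators and products of the same lineages were read as well. Of 17 further transcription factors, 16 were in the annotation, and Gata1, Gata2, Lyl1 and Sfpi1 were among the 10 without H3K27ac within 5 kb of the TSS in any control list. The other 6 carried it. Both 4-OHT values lay under both control values at Etv2, Zfpm1 and Ets1, against 12.5% of all genes. They lay over both control values at Klf1 and Ldb1, against 39.7% of all genes, while at Elk3 the groups overlapped. Values are given here only for the 3 genes with lower 4-OHT values, and not for Klf1, Ldb1 or Elk3. Etv2 covered 3950 and 5375 bp in control against 1625 and 2575 bp after 4-OHT. Zfpm1 covered 4825 and 6550 bp against 1925 and 1725 bp, and Ets1 400 and 1250 bp against 0 and 0 bp. Of 12 endothelial genes, 10, including Cdh5, Pecam1, Tek and Tie1, had no H3K27ac in any control list, and of 6 blood genes 4, including the globins Hba-a1 and Hbb-bh1, had none. None of those measured passed limma for any mark. Of the 6 further transcription factors tested for H3K27ac within 5 kb, 3 had a difference below 0, with a median of -0.51, and within 50 kb 6 of 14 did, with a median of 0.26. Of the blood genes, none of the 3 tested within 5 kb was below 0, with a median of 0.87. For H3K27me3, 5 of 7 transcription factors were below 0, with a median of -0.29. The mesoderm markers measured for H3K27ac within 5 kb were below 0 at 7 of 7 genes with a median of -0.51, and their summed H3K27ac ranged from 26.7 to 36.9 kb in control and from 19.4 to 29.1 kb after 4-OHT. Endoderm markers were below 0 at 2 of 2 genes, with a median of -1.22. Their summed H3K27ac ranged from 3.36 to 5.31 kb in control and from 1.66 to 3.48 kb after 4-OHT. Pluripotent markers were below 0 at 2 of 5 genes, with a median of 0.02. Whether these marker differences had a part in the values of Runx1 and Fli1 was not tested.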

How the data were processed

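The authors deposited 17 lists of enriched regions (chromosome, start and end), called per replicate over input at a threshold of 1e-06 with at least 2-fold enrichment for FLAG and 1e-12 for the other marks. The 11 input samples were not used here otherwise. The submitters' processing notes name Bowtie, with no version, and the mm9 build; all 17 lists lie within its chromosomes, and genes were taken from the GENCODE annotation of mm9. Read depth is not given in the sources used here.

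The members and gene lists were chosen with earlier results of these data known. All 10 members are named whatever their values. Genes of other lists are given as counts, and some are also named, a few with values, although none passed a test. Values of further blood and endothelial genes had been planned only where a test passed. Covered length per window was compared by limma on log2(bp + 250) over all protein-coding genes with the mark in the window in any replicate, with Benjamini-Hochberg adjustment and a threshold of 0.05. Fold differences on this scale understate changes of short regions. Single values were compared by two-sided exact permutation tests, whose smallest p is 0.333 for 2 against 2 and 0.1 for 3 against 3. Same-numbered H3K27me3 replicates deviated together (correlations 0.695, 0.533 and 0.483 of deviations from condition means), and the numbers were therefore taken to pair them. Replicates 2 and 3 also deviated together across numbers, more weakly (0.189 and 0.316), so they are less clearly told apart. The pairing is a judgement that rests on the lists compared here and not on the labels. Labels call the replicates biological, of one cell line. Gfi1 and Sox1 were not analysed here, and Spi1 was matched by its older symbol Sfpi1.

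In simulated H3K27ac data at 5 kb, run on 11921 genes, limma recovered 92% of changes of -3 and 67% of changes of -1.5 on the log2 scale. At 50 kb, on 17084 genes, it recovered 86% and 63%. For H3K27me3, on 4117 genes, it recovered 86% and 42%, and for Suz12, on 2247 genes, 94% and 87%. In each simulation, changes were planted only in genes with a wide mean coverage. For H3K27ac at 5 kb, every measured gene of the list fell below that coverage, so the 92% and 67% do not apply to them. At 50 kb, only Gfi1b of the measured genes reached it. For H3K27me3, Gfi1b, Erg and Hhex fell below it, as did Sox18 and Hhex for Suz12. The percentages do not apply to the genes below it in these fits either. Alternatives were other added constants, filters, TSS choices, equal list lengths, a replicate block and each replicate left out. Python 3.11.15, NumPy 2.4.6, Matplotlib 3.10.9, R 4.3.3 and limma 3.58.1 were used.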

Additional observations from a re-analysis of the deposited data

How the results depend on the processing

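Among the 10 genes, limma called none as reported. Hhex H3K27ac within 5 kb passed with 25 bp added (log2 difference 3.75), where 112 genes of the whole annotation were called. It also passed with no filter (1.71), where 99 were called. Hhex was the 1 gene of the list called at both settings. No other alternative called a gene of the list. Genes called over the whole annotation moved with the settings. With 25 bp added they were 112 and 164 for H3K27ac at 5 and 50 kb and 117 for Suz12. With a mean of at least 500 bp they were 12, 26, 2 and 18 for H3K27ac at 5 kb, H3K27ac at 50 kb, H3K27me3 and Suz12. With no filter they were 99, 82, 0 and 13. For H3K27me3 they were 0 on the linear scale, with equal list lengths and with the replicate block, and 0 with any 1 library left out, against 6 as reported. For Suz12 they ranged from 0 to 673 with 1 library left out, where the lone replicate is assumed to vary like the other group. The cause was not tested.

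The replicate block, which for H3K27ac and Suz12 joins only numbers (correlations 0.339 and 0.074), called 0 genes for every mark at 5 kb and changed no call of the list. With 1 library left out, differences of both signs arose for H3K27me3 at Tal1 (-0.28 to 0.04), Fli1 (-0.44 to 0.18), Sox7 (-0.52 to 0.07), Sox17 (-0.41 to 0.11) and Sox18 (-0.35 to 0.07), and for Suz12 at Tal1 (-0.12 to 0.18), Sox7 (-0.08 to 0.25), Sox17 (-0.10 to 0.01) and Hhex (-0.34 to 0.06). The H3K27me3 reversals came without 4-OHT replicate 1 at all 5 genes (0.04 to 0.18) and, at Sox17, also without control replicate 2 or 3 (0.03). With all coding starts the Suz12 difference of Tal1 was -0.04. Missing distal regions numbered 26 of 30 with regions in either control list, against 51.7% of all such regions, and 9 to 24 with 1 library left out. They were 10 of 18 beyond 1 kb (all regions 32.1%), 9 of 12 beyond 5 kb (34.6%), 8 of 12 with equal list lengths (30.7%), and 9 of 13 where at least 50% had to be covered (49.6%) or where 1 4-OHT list sufficed (44.9%). Brg1-bound regions numbered 22 in any FLAG list, 0 in all 3, 0 within 50 kb of the TSS, and 0 to 3 with 1 FLAG list left out. With all coding starts, an alternative added after seeing the data, 2 genes (Lmo2 and Runx1) had longer Suz12 in both 4-OHT lists, against 0 as reported.

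Lists without counts give no depth, so a region that is not listed cannot be called absent, and a longer list cannot be told apart from a more deeply sequenced one. With 2 replicates per condition no exact test of a single value can pass 0.05.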
